A study of Rattus norvegicus with 21 samples.

Results

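The difference between a growing bile duct tumour and the liver of the same rat was followed over time, and the question was how that difference at day 25 departed from the one at day 10 and which tissue had moved. The groups compared were 12 of the 21 arrays of the series: 3 tumours and 3 livers at day 25, and 3 tumours and 3 livers at day 10. The tumours grew from BDEneu cells, a line of rat bile duct cells (cholangiocytes) transformed by the neu oncogene, the activated form of Erbb2, in male young adult Fischer 344 rats. The livers, labelled normal right liver lobe, came from the same 6 tumour-bearing rats, so each tumour could be set against its own liver. Replicates 1, 2 and 3 were rats 7, 8 and 9 at day 25 and rats 1, 2 and 3 at day 10, so time was compared between different animals. The other 9 arrays, 6 of tumour and liver at day 15 and 3 of metastases at day 25, entered no mean that was compared but were part of the fit, where they helped to set the spread.

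All tumours stem from 1 cell line, and no liver of a rat without a tumour was analysed here, so time after inoculation, the age of the rats and the burden of tumour cannot be told apart. The labels disagree on the later livers: their descriptions say day 55, but their titles and sources say day 25, which was taken. Levels and changes are log2 values per probe set, so a change of 1 is a 2-fold change of signal. The change in the difference is the tumour minus liver value of day 25 less that of day 10. It equals the change of the tumour with time minus the change of the liver with time, and the 3 comparisons share their arrays.

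Bile duct cancers are rich in stroma: fibroblasts, vessels and leukocytes make up much of their mass. The liver around them answers inflammatory signals with the acute-phase response, in which hepatocytes raise the output of defence proteins such as alpha-2-macroglobulin under interleukin 6. Hepatocytes are also a main site of fatty acid synthesis, which is set by insulin, feeding and the factor SREBP-1c. A tumour-liver difference can therefore change because either tissue moves.

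The tissues were checked against marker genes. Krt19, a keratin of bile duct cells, had log2 levels of 11.96 to 12.25 in day 25 tumours and 11.70 to 12.27 in day 10 tumours. In the livers it lay at 7.77, 5.87 and 4.98 at day 25 and at 4.86 to 5.42 at day 10, so the liver of rat 7 stood above the others. Erbb2 was at 10.73, 10.00 and 9.36 in day 25 tumours and 5.69, 5.23 and 4.98 in day 25 livers, against 9.07, 9.55 and 8.93 in day 10 tumours and 5.61, 5.27 and 5.39 in day 10 livers. Its difference was larger at day 25 by 0.98 (SE 0.44), which did not pass the test (limma, adjusted p = 0.244). Alb, serum albumin, was also high in most tumours. The signal of 15 hepatocyte genes in a tumour had a median of 3.36, 27.6 and 24.9% of that in its own liver at day 25, against 34.2, 17.8 and 33.5% at day 10. The tumour of rat 7 thus carried the least hepatocyte transcript. Arrays of day 25 also agreed less with their own group (mean r 0.941 to 0.969 for tumours and 0.957 to 0.975 for livers) than those of day 10 (0.989 to 0.993 for tumours and 0.991 for each liver).

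The tumour-liver difference changed for 243 of 14218 genes (1.71%; limma with the rat as a block, Benjamini-Hochberg adjusted p under 0.05, 3 rats per day). It became higher, that is, moved toward the tumour, for 57 genes (0.401%) and lower for 186 (1.31%). Most of the 243 genes had a smaller difference at day 25: in 191 of them (78.6%, against 57.6% of all genes) the size of the difference was smaller than at day 10. Among the 186 that became lower, 128 were higher in tumour than in liver at both days, so their gap narrowed, and 46 changed sign. The median size of the change was 1.16 among the called genes, and 153 of them changed by at least 2-fold (63.0%, against 6.8% of all genes). The test favours large changes, so that share describes the choice of genes.

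The liver had the larger change in most of them. A gene was called liver-led where the liver changed at least 2 times as much as the tumour, tumour-led for the reverse, and both otherwise. By that rule 151 of the 243 genes were liver-led (62.1%, against 33.3% of all genes), 19 were tumour-led (7.8%, against 27.3%) and 73 were both (30.0%, against 39.5%). Leaving out 1 rat gave 137 to 175 liver-led and 11 to 29 tumour-led genes, with the fewest tumour-led without rat 7 and the most without rat 9. The median size of the liver change was 0.88 and that of the tumour change 0.32. These shares follow by arithmetic from the same arrays and are no separate evidence.

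Tested alone, the liver changed between day 10 and day 25 for 1294 genes (9.1%), of which 758 rose (5.33%) and 536 fell (3.77%). With each array centred on its median, 605 rose and 675 fell, so the balance of directions depends on the scaling. The tumour changed for 8 genes (0.0563%), of which 2 rose (0.0141%) and 6 fell (0.0422%). With arrays weighted by their agreement, the tumour test called 4535 genes and the liver test 2374, so which tissue has more calls depends on the weighting. Of the 243 genes, 175 had a called liver change, 5 a called tumour change, 63 neither and 0 both. In 182 of them (74.9%, against 44.4% of all genes) the means of the tissues moved in opposite directions. Choosing genes for a large change in the difference favours this by itself. The 3 per-rat differences of day 25 did not overlap those of day 10 in any of the 243 genes (26.8% of all genes), which the choice by a test on these same differences brings about and which shows nothing further. Liver arrays of the days did not overlap for 213 of them (30.3% of all genes) and tumour arrays for 130 (27.2% of all genes). The same choice raises these counts, so they are no separate evidence.

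**Figure D1:**
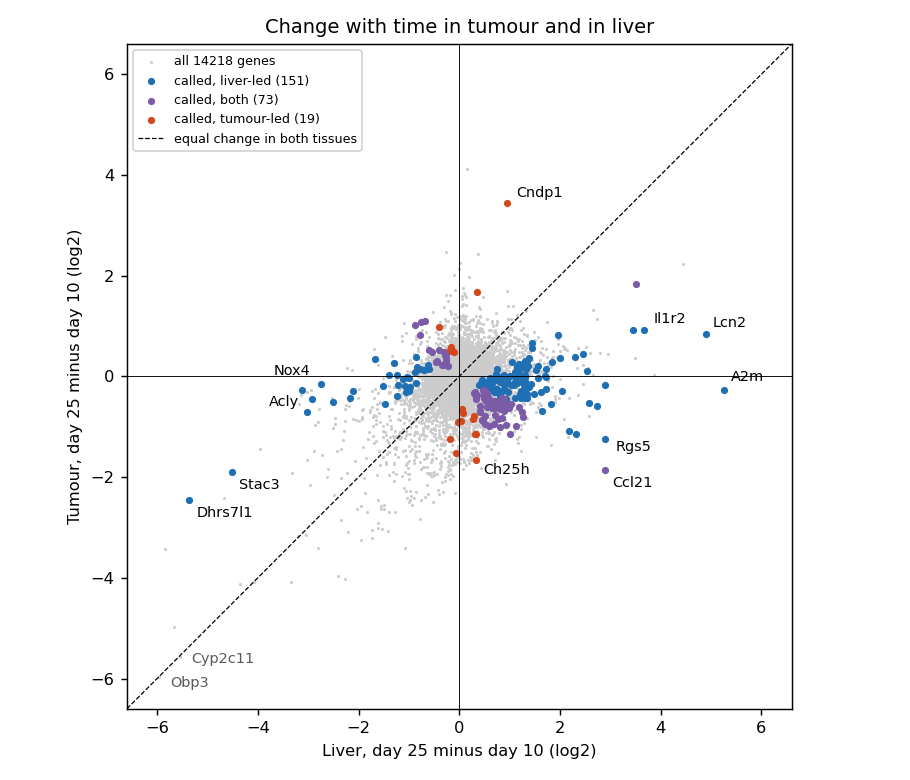
Change from day 10 to day 25 in liver (horizontal axis, log2) and in tumour (vertical axis, log2), each point 1 gene and the mean of 3 arrays minus the mean of 3 arrays. Grey points are all 14218 genes and coloured points the 243 whose difference changed; 151 liver-led genes spread along the horizontal axis, and Cyp2c11 and Obp3 lie on the dashed line of equal change.

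The number of calls rested on the arrays in the fit and on single rats. Fitted on the 12 arrays alone, the test called 67 genes, 58 of them among the 243. Without rat 2 the test called 20 genes, without rat 3 it called 22, without rat 8 it called 31, without rat 1 it called 104, without rat 7 it called 113 and without rat 9 it called 505. Fitted without the rat block it called 208 genes, 129 of them among the 243.

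The largest change was in the acute-phase group. A2m, alpha-2-macroglobulin, the protease inhibitor that rats make in bulk during inflammation, had levels of 9.92, 12.88 and 12.86 in tumours and 12.80, 13.34 and 13.24 in livers at day 25. At day 10 it had 12.10, 11.88 and 12.49 in tumours and 8.31, 8.46 and 6.85 in livers. The day 25 livers all lay above the day 10 livers, while the tumours of the days overlapped. A2m was thus higher in tumour at day 10 in each rat (by 3.43 to 5.64) and lower in tumour at day 25 in each rat (by 0.38 to 2.89). The difference fell by 5.53 (SE 0.75, adjusted p = 0.0103), made of a liver change of 5.26 (SE 0.64, adjusted p = 0.00022) and a tumour change of -0.27 (SE 0.64, adjusted p = 0.855). Without rat 7, whose tumour was lowest, the change was -4.71 (adjusted p = 0.0174).

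Lcn2, lipocalin 2, which starves bacteria of iron and is made by both neutrophils and stressed hepatocytes, followed the same course. It had 7.99, 9.05 and 8.90 in tumours and 9.26, 10.80 and 10.68 in livers at day 25, against 8.15, 7.26 and 7.99 in tumours and 5.10, 5.52 and 5.44 in livers at day 10. Every liver of day 25 stood above every liver of day 10, and the tumour ranges overlapped. The difference fell by 4.05 (SE 0.85, adjusted p = 0.0449), with a liver change of 4.89 (SE 0.83, adjusted p = 0.00266) and a tumour change of 0.84 (SE 0.83, adjusted p = 0.619). This call did not hold without the rat block (adjusted p = 0.0957) or without any 1 of the 6 rats (adjusted p from 0.0684 to 0.14).

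Cebpd, the transcription factor C/EBP delta that is induced in the acute-phase response, was also called. Its levels were 9.04, 9.00 and 8.99 in tumours and 8.14, 8.97 and 9.02 in livers at day 25, against 9.16, 9.51 and 9.28 in tumours and 7.04, 7.20 and 6.99 in livers at day 10. All tumours of day 25 lay below those of day 10, and all livers above; the livers of rats 8 and 9 were level with their tumours, and that of rat 7 stayed 0.89 below. The liver rose by 1.63 (SE 0.32, adjusted p = 0.00575), and the difference fell by 1.94 (SE 0.27, adjusted p = 0.0104). Of its other probe sets, one gave -2.07 (adjusted p = 0.0241) and one 0.07 (adjusted p = 0.774).

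Of the 25 measured acute-phase genes, 3 became lower in the difference (12%, against 1.31% of all genes) and 0 higher, with a median change of -1.33 against 0.01 over all genes. The median tumour change was -0.74 and the median liver change 0.31, and the liver change was the larger in size in 12 members. The list's median therefore does not show a liver rise alone. The liver test called 9 of them, all higher (5.33% of all genes were), among them Lbp, the binder of bacterial lipopolysaccharide (2.01, adjusted p = 0.0258), Mt2A, a metallothionein (2.67, adjusted p = 0.012), and Socs3, the feedback inhibitor of interleukin 6 signalling (1.23, adjusted p = 0.0302). Other members showed little liver change. Hp, haptoglobin, had a liver change of 0.12 (adjusted p = 0.932) from levels of 14.16 to 14.23 at day 10, and C3 one of 0.02 (adjusted p = 0.984), both near the top of the scale of 14.62, where a rise may not be measurable. Their tumour values were pulled down by rat 7: Hp was at 10.74, 14.12 and 14.19 in day 25 tumours.

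**Figure D2:**
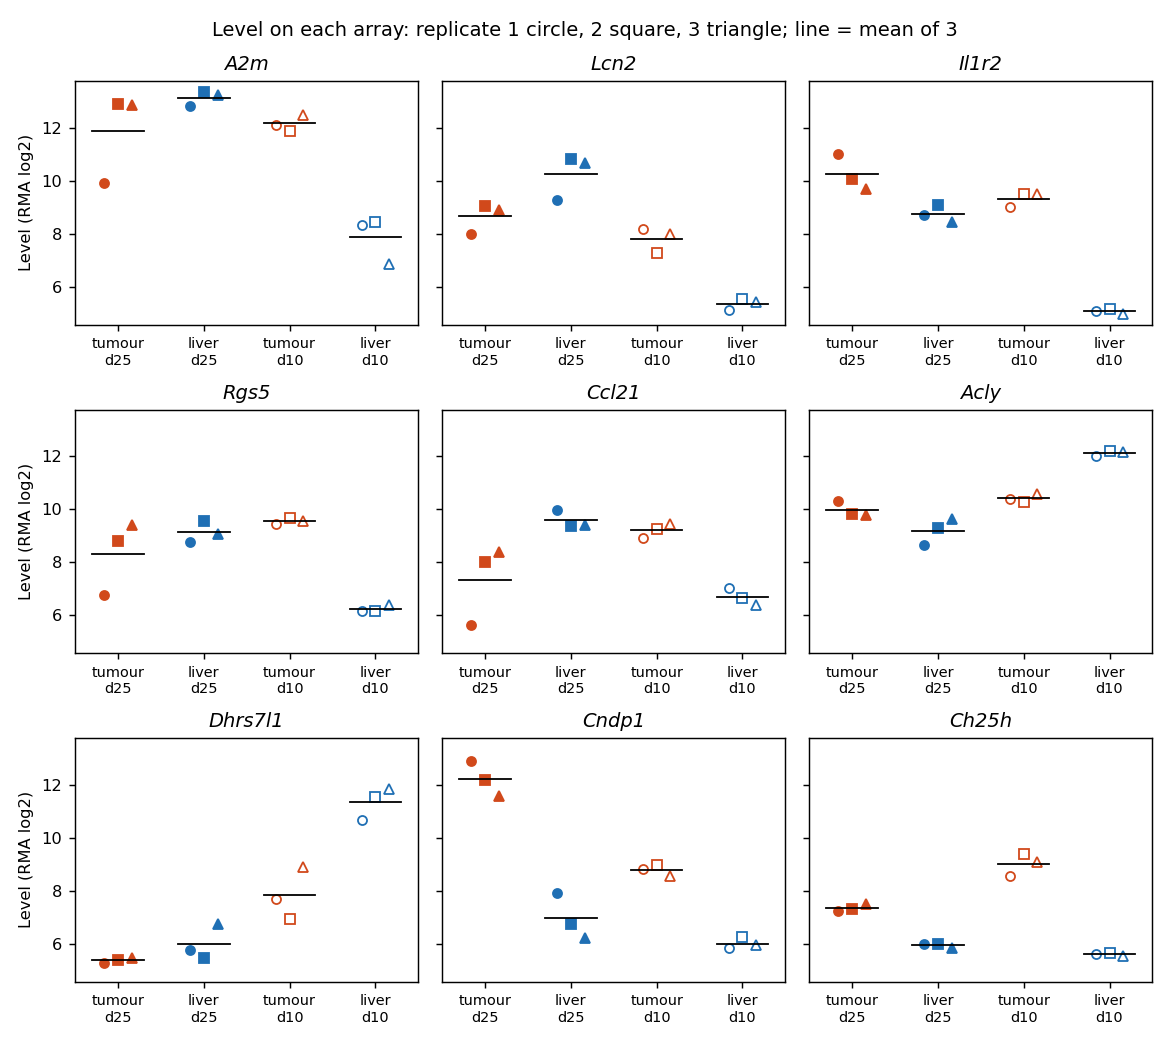
RMA log2 level of 9 genes on each array, with tumour (orange) and liver (blue) at day 25 (filled) and day 10 (open); markers are replicates and the line is the mean of 3. The livers of A2m, Lcn2, Il1r2, Rgs5 and Ccl21 lie higher and those of Acly and Dhrs7l1 lower at day 25, whereas Cndp1 and Ch25h differ mainly between the tumours.

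A second group was genes of neutrophils, the leukocytes that are first drawn to inflamed tissue. Of 11 measured neutrophil genes, 4 became lower in the difference (36.4%, against 1.31% of all genes called lower) and 0 higher: Lcn2, Il1r2, Csf3r and S100a9. The list's median change was -0.57. In the liver test 6 members rose (5.33% of all genes did). The list's mean level was 7.47 to 7.92 in day 25 livers against 5.49 to 6.05 in day 10 livers. In tumours it was 8.39 to 8.93 at day 25 and 7.87 to 7.88 at day 10, so this was a group in which both tissues had higher means at day 25. More cells of a type and more RNA per cell cannot be told apart in bulk tissue.

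Il1r2, the decoy receptor that binds interleukin 1 without signalling, had 10.98, 10.07 and 9.69 in tumours and 8.71, 9.09 and 8.44 in livers at day 25, against 9.01, 9.48 and 9.48 in tumours and 5.08, 5.16 and 4.98 in livers at day 10. Neither tissue overlapped between the days, and the livers were farther apart. The difference fell by 2.75 (SE 0.33, adjusted p = 0.00706), the liver rose by 3.67 (adjusted p = 2.33e-05) and the tumour change was 0.93 (adjusted p = 0.198). It was called in each of the 6 fits that left out 1 rat.

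Csf3r, the receptor for the growth factor of neutrophils, had 8.66, 8.85 and 9.18 in tumours and 6.74, 7.21 and 6.75 in livers at day 25, against 8.77, 9.08 and 8.79 in tumours and 5.40, 5.55 and 4.62 in livers at day 10. The tumours of both days lay in 1 band and the livers in 2 separate ones. The liver rose by 1.71 (adjusted p = 0.00139) and the difference fell by 1.69 (SE 0.30, adjusted p = 0.0249). S100a9, a subunit of the neutrophil protein calprotectin, was at 13.05, 13.25 and 12.75 in tumours and 12.29, 12.23 and 11.39 in livers at day 25. At day 10 it was at 11.37, 11.21 and 10.95 in tumours and 9.36, 8.31 and 7.72 in livers. Both tissues lay wholly above day 10, and the liver rose by more (3.50, adjusted p = 0.00055) than the change of the tumour (1.84, adjusted p = 0.143), so the difference fell by 1.66 (SE 0.31, adjusted p = 0.0289; 0.214 without the rat block). Its partner S100a8 had a change of -2.21 that did not pass (adjusted p = 0.0721). Of the remaining members, Mmp8 and Mmp9, neutrophil proteases, had positive changes of 0.43 and 0.74 that did not pass (adjusted p = 0.495 and 0.473).

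The called neutrophil genes are shown here with the bases before their start sites, since they are one list whose livers moved together; 3 of the 4 had an entry. The sequences are from RefSeq (build GRCr8, used for names and promoters only), 5′ to 3′ on the gene's strand, and end where the first annotated transcript begins. Capitals mark matches, on either strand, to TTGCNNAA, a letter pattern of C/EBP factors, or GGGANNNNCC, a pattern of NF-kB.
Lcn2 (chr3:36081852-36082030, minus strand): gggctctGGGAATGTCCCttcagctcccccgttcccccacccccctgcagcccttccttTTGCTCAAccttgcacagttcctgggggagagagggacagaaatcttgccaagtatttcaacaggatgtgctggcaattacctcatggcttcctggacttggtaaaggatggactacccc
Csf3r (chr5:143582970-143583125, plus strand): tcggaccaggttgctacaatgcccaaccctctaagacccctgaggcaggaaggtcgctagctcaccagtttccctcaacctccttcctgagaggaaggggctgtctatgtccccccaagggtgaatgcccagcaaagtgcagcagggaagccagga
S100a9 (chr2:178490623-178490872, minus strand): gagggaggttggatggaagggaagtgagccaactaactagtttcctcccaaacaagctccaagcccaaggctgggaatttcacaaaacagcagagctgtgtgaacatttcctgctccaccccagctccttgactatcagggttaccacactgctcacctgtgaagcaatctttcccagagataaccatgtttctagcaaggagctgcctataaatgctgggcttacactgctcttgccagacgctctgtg
In Lcn2 the window of 179 bases held TTGCNNAA at 120 to 113 bases upstream and overlapping matches of GGGANNNNCC on both strands at 172 to 162 bases upstream. Windows of that length held the first pattern in 7.0% and the second in 11.6% of 33469 promoters. These were the outermost 179 of the 250 bases before each listed start, and were not cut at other transcripts. The windows of Csf3r (156 bases) and S100a9 (250 bases) held neither pattern. The shares of all promoters, counted in the same way, were 6.1 and 9.9% at the length of Csf3r, and 9.2 and 16.4% at that of S100a9.

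Some single genes known from macrophages and other myeloid cells were also called, though few of the macrophage list were. Olr1, the scavenger receptor LOX-1 for oxidised lipoprotein, had 8.90, 9.70 and 9.93 in tumours and 6.65, 7.08 and 6.96 in livers at day 25, against 9.72, 9.62 and 9.70 in tumours and 3.76, 4.33 and 3.93 in livers at day 10. The day 10 livers lay under the array medians (5.98 to 6.06), where signal and background could not be parted. Its difference fell by 3.05 (SE 0.38, adjusted p = 0.00737) with a liver rise of 2.89 (adjusted p = 0.00055) and a tumour change of -0.17 (adjusted p = 0.855).

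Clec7a, the fungal sugar receptor dectin-1, changed by -2.33 in the difference (adjusted p = 0.0224), and its liver rose by 1.64 (adjusted p = 0.00352). Lgmn, the lysosomal protease legumain, changed by -1.60 (adjusted p = 0.0224), and its liver rose by 1.39 (adjusted p = 0.000491). A second Lgmn probe set gave -0.17 (adjusted p = 0.611). Fcgr2b, the inhibitory IgG receptor carried by liver sinusoids and leukocytes, had 10.56, 10.55 and 10.98 in tumours and 10.48, 10.79 and 10.80 in livers at day 25, against 11.30, 11.41 and 11.45 in tumours and 9.67, 9.81 and 9.90 in livers at day 10. The tissues met at day 25, with the tumours lower and the livers higher than at day 10. Its difference fell by 1.58 (SE 0.18, adjusted p = 0.00497) to 0.01 at day 25, and the call held in each fit that left out 1 rat.

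Of 23 macrophage genes, 1 was called lower in the difference, Lgmn (4.3%, against 1.31% of all genes), and 0 higher. The median change was -1.08, and the liver test called 11, all higher (5.33% of all genes were). Olr1, Clec7a and Fcgr2b are not on that list. Fcgr2b is on the list of liver sinusoid endothelium. It was the 1 called of 11 measured members there (9.1%, against 1.31% of all genes called lower). C1qb, a subunit of the complement starter C1q, rose by 1.01 in liver (adjusted p = 0.00867), with a difference change of -1.43 (adjusted p = 0.0592). Of 9 Kupffer cell genes 1 was called lower (11.1%, against 1.31% of all genes), Hmox1, haem oxygenase, which breaks down haem. It had 10.12, 10.32 and 9.57 in tumours and 11.87, 10.17 and 10.44 in livers at day 25, against 9.63, 9.36 and 9.89 in tumours and 8.84, 8.34 and 8.42 in livers at day 10. The livers did not overlap between the days and that of rat 7 was highest. With a liver rise of 2.29 (adjusted p = 0.00306), its difference fell by 1.92 (SE 0.40, adjusted p = 0.0427; 0.099 without the rat block).

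Serpinb1a, an inhibitor of neutrophil proteases, had 12.19, 12.05 and 11.48 in tumours and 10.58, 10.28 and 9.62 in livers at day 25, against 10.98, 11.07 and 10.89 in tumours and 7.01, 6.73 and 6.41 in livers at day 10. Both tissues were higher at day 25, the livers by more: the difference fell by 2.52 (SE 0.24, adjusted p = 0.00435), with a liver rise of 3.44 (adjusted p = 7.53e-05) and a tumour change of 0.92 (adjusted p = 0.211). Its other probe set gave 0.06 (adjusted p = 0.906). Fxyd5, dysadherin, a membrane protein that weakens cell adhesion, had 10.92, 10.91 and 10.90 in tumours and 8.09, 8.73 and 8.26 in livers at day 25, against 11.10, 11.31 and 11.17 in tumours and 6.17, 6.57 and 6.22 in livers at day 10. The tumour change was -0.28 (adjusted p = 0.508) and the livers rose by 2.04 (adjusted p = 7.88e-05), so the difference fell by 2.32 (SE 0.21, adjusted p = 0.00435), again in each fit that left out 1 rat.

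Single genes known from vessel walls and connective tissue were also among the called ones. Of 17 blood vessel endothelium genes and of 16 smooth and skeletal muscle genes, 0 were called in the difference, beside 1.71% of all genes. Lists of this size can have 0 calls at that share. Rgs5, Kcnj8, Rgs4 and Pcdh17 are on none of the 42 lists. Rgs5, a brake on G protein signalling known as a marker of pericytes, the cells that wrap small vessels, had 6.75, 8.79 and 9.41 in tumours and 8.74, 9.56 and 9.08 in livers at day 25, against 9.43, 9.68 and 9.54 in tumours and 6.14, 6.17 and 6.38 in livers at day 10. All livers of day 25 were above those of day 10, and all tumours of day 25 were below those of day 10, rat 7 by the most. The difference fell by 4.13 (SE 0.58, adjusted p = 0.0117), with a liver rise of 2.90 (adjusted p = 0.0113) and a tumour change of -1.23 (adjusted p = 0.333). Without rat 7 it was -3.55 (adjusted p = 0.0174).

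Kcnj8, a potassium channel subunit also known from pericytes, changed by -2.36 (adjusted p = 0.0219) and rose by 1.82 in liver (adjusted p = 0.00773). Rgs4, a relative of Rgs5, changed by -3.27 (adjusted p = 0.0339) and rose by 2.18 in liver (adjusted p = 0.008). Pcdh17, a protocadherin, changed by -3.46 (adjusted p = 0.0186), but its liver values of 5.05, 8.46 and 7.73 at day 25 against 4.94, 4.79 and 4.55 at day 10 were spread widely, and the liver change did not pass (adjusted p = 0.0634).

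Pcolce, which speeds the cutting of procollagen, had 8.79, 10.25 and 10.83 in tumours and 10.81, 11.22 and 11.27 in livers at day 25, against 10.50, 10.80 and 10.36 in tumours and 8.97, 8.20 and 7.94 in livers at day 10. The livers rose by 2.73 (adjusted p = 0.00852) past the level of the tumours, and the difference fell by 3.33 (SE 0.53, adjusted p = 0.0165). Plod2, the lysyl hydroxylase that prepares collagen for cross-linking, had 9.73, 10.78 and 11.02 in tumours and 7.83, 8.86 and 7.54 in livers at day 25, against 11.10, 11.07 and 10.95 in tumours and 5.62, 5.56 and 5.34 in livers at day 10. Its livers stayed below the tumours but closer, with a change of -3.10 in the difference (SE 0.44, adjusted p = 0.0117) and a liver rise of 2.57 (adjusted p = 0.00359).

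Vim, the intermediate filament vimentin of mesenchymal cells, changed by -1.66 (adjusted p = 0.0161) and rose by 1.23 in liver (adjusted p = 0.00147). Col5a2, a chain of fibrillar collagen V, changed by -1.66 (adjusted p = 0.0401) and rose by 1.28 in liver (adjusted p = 0.0323). Cdh11, a cadherin of fibroblasts, changed by -2.07 (adjusted p = 0.0157) with neither tissue called alone, and 2 other probe sets for it gave 0.13 and -0.06 (adjusted p = 0.683 and 0.89). Zeb2, a factor of mesenchymal transition, changed by -1.23 (adjusted p = 0.0452), and its 4 other probe sets, from -1.34 to -0.44, did not pass. Vim, Cdh11 and Zeb2 were the 3 called members of 19 TGF-beta and mesenchymal genes (15.8%, against 1.31% of all genes called lower).

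Ccl21, the chemokine that guides T cells and dendritic cells to lymph nodes, had 5.61, 8.02 and 8.38 in tumours and 9.98, 9.37 and 9.39 in livers at day 25, against 8.92, 9.26 and 9.43 in tumours and 7.01, 6.64 and 6.38 in livers at day 10. The tissues changed places, with no overlap between the days in either. The difference fell by 4.77 (SE 1.01, adjusted p = 0.0452), with a liver rise of 2.90 (adjusted p = 0.0254) and a tumour change of -1.86 (adjusted p = 0.234). Without rat 7 the change was -3.70 (adjusted p = 0.102).

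Of 31 myofibroblast and collagen genes, 1 was called lower in the difference, Col5a2 (3.2%, against 1.31% of all genes), and 0 higher. The median change was -1.22, and in 24 of them the liver change was the larger in size (it was in 53.9% of all genes). The liver test called 7, all higher (5.33% of all genes were): Dcn, the collagen-binding proteoglycan decorin (2.34, adjusted p = 0.003), Lox, which cross-links collagen (1.90, adjusted p = 0.0389), Col4a1, Col4a2, Col1a2, Col12a1 and Col5a2 (1.28 to 1.65). The list's mean level was 7.91 to 8.57 in day 25 livers, against 7.29 to 7.85 in day 10 livers. Postn, periostin, which marks the tumour stroma in these arrays at 12.65 to 13.09 in tumours of both days, stayed at 4.43, 5.75 and 4.16 in day 25 livers against 4.08, 5.31 and 4.52 in day 10 livers.

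Some markers of bile duct epithelium were also higher in the livers of day 25. The mean level of 19 biliary genes was 6.43 to 7.45 in day 25 livers, highest in rat 7, against 6.23 to 6.31 in day 10 livers. The liver test called 4 of them, all higher (5.33% of all genes were): Krt8, Krt18, Cd24 and Tspan8 (1.44 to 1.77). None of the 19 was called in the change of the difference (1.71% of all genes were). Cd24 was at 8.31, 6.31 and 5.44 in day 25 livers against 4.73, 4.94 and 5.09 in day 10 livers, in the same rat order as Krt19. Whether bile duct or tumour cells in the liver pieces had a part in the changes of the other groups was not tested.

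Klf4, a zinc finger factor of epithelia and endothelium, also became lower (-1.0, adjusted p = 0.0373, liver rise of 1.31), but was not called in any fit that left out 1 rat. Cux2, a repressor that is high in female and low in male rat liver, had 4.28, 4.56 and 4.50 in tumours and 5.70, 5.76 and 5.96 in livers at day 25, against 4.04, 4.09 and 4.12 in tumours and 4.43, 4.44 and 4.41 in livers at day 10. All these levels lay under the array medians. The 3 livers of day 25 stood more than 1 above those of day 10, and the difference fell by 1.02 (SE 0.13, adjusted p = 0.0099).

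The genes that became higher in the difference included enzymes of lipid and NADPH synthesis that fell in the liver. Acly, ATP citrate lyase, which supplies acetyl-CoA for fatty acids, had 10.30, 9.81 and 9.78 in tumours and 8.66, 9.28 and 9.63 in livers at day 25, against 10.39, 10.28 and 10.56 in tumours and 11.997, 12.18 and 12.14 in livers at day 10. It was lower in tumour than in liver in each rat of day 10 and higher in tumour in each rat of day 25. The difference rose by 2.47 (SE 0.37, adjusted p = 0.0144), with a liver fall of 2.92 (SE 0.39, adjusted p = 0.000491) and a tumour change of -0.45 (adjusted p = 0.564).

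In the rest of the fatty acid list no member passed the test of the difference, while most fell in liver. Of 21 measured genes, 1 was called higher, Acly (4.8%, against 0.401% of all genes), and 0 lower, with a median change of 1.27 against 0.01 over all genes. The liver test called 14, all lower (3.77% of all genes were), and the median liver change was -2.12. Fasn, fatty acid synthase, was at 10.37, 10.22 and 10.30 in tumours and 7.82, 9.70 and 10.49 in livers at day 25, against 10.63, 10.43 and 10.75 in tumours and 12.31, 12.27 and 12.51 in livers at day 10. Its liver fell by 3.03 (adjusted p = 0.0013), most in rat 7, while the change of 2.72 in its difference did not pass (adjusted p = 0.0564). Srebf1, the gene of SREBP-1c, fell by 2.27 in liver (adjusted p = 0.00313), with a change in the difference of 1.39 (adjusted p = 0.068). For Scd, the desaturase that makes oleic acid, the liver fell by 3.34 (adjusted p = 0.0359) beside a tumour change of -4.09 (adjusted p = 0.137), and the change in the difference was -0.76 (adjusted p = 0.721).

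Tkt, transketolase, and Pgd, 6-phosphogluconate dehydrogenase, are enzymes of the pentose phosphate route that yields NADPH. Tkt had 11.80, 11.53 and 11.31 in tumours and 9.34, 9.61 and 9.71 in livers at day 25, against 11.51, 11.68 and 11.36 in tumours and 10.78, 11.08 and 10.96 in livers at day 10. The tumours overlapped and the livers did not: the difference rose by 1.42 (SE 0.22, adjusted p = 0.0159), and the liver fell by 1.39 (adjusted p = 7.53e-05). Pgd rose by 0.76 in the difference (adjusted p = 0.0429) and fell by 0.98 in liver (adjusted p = 0.000701). Gclc, the enzyme that limits glutathione synthesis, rose by 0.87 in the difference (adjusted p = 0.0401) and fell by 1.07 in liver (adjusted p = 0.00347). Tkt, Pgd and Gclc are also targets of the stress factor Nrf2. Of 19 Nrf2 targets 3 were called higher and 1 lower, Hmox1 (21.1% in all, against 1.71% of all genes). Their median change was 0.01, so that list did not move in 1 direction.

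Pmvk, phosphomevalonate kinase of cholesterol synthesis, had 9.94, 9.17 and 9.13 in tumours and 8.60, 7.73 and 8.01 in livers at day 25, against 8.95, 9.09 and 9.05 in tumours and 8.87, 9.03 and 9.03 in livers at day 10. The tissues were level at day 10 in each rat (differences of 0.01 to 0.08) and 1.12 to 1.43 apart at day 25. The difference rose by 1.25 (SE 0.14, adjusted p = 0.00509), with a liver fall of 0.87 (adjusted p = 0.0206) and a tumour change of 0.38 (adjusted p = 0.373), and it was called in each fit that left out 1 rat. It was the 1 called member of 15 cholesterol synthesis genes (6.7%, against 0.401% of all genes called higher), whose median change was 0.33.

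The gene with the largest positive change was Dhrs7l1, a short-chain dehydrogenase gene. It had 5.26, 5.39 and 5.46 in tumours and 5.76, 5.45 and 6.75 in livers at day 25, against 7.67, 6.92 and 8.90 in tumours and 10.68, 11.54 and 11.82 in livers at day 10. Both tissues were far lower at day 25, and the day 25 tumours lay under the array medians. The difference rose by 2.90 (SE 0.45, adjusted p = 0.0159), with a liver fall of 5.36 (adjusted p = 0.00158) and a tumour change of -2.46 (adjusted p = 0.192). Stac3, an adaptor protein known from muscle, had the same form, with a change of 2.61 (adjusted p = 0.0452) and a liver fall of 4.52 (adjusted p = 0.0139).

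In several others of this direction the tumour was at the low end of the scale at both days. Nox4, an NADPH oxidase that makes hydrogen peroxide, had 4.37, 4.06 and 4.54 in tumours and 4.16, 4.15 and 4.64 in livers at day 25, against 4.46, 4.47 and 4.52 in tumours and 6.94, 7.04 and 7.20 in livers at day 10. The livers came down to the tumours, with a change of 2.59 in the difference (SE 0.28, adjusted p = 0.00453) and a liver fall of 2.74 (adjusted p = 0.000113). Slc13a4, a sulphate transporter (2.86, adjusted p = 0.0136), Poteml2 (2.32, adjusted p = 0.00737), Sez6 (2.00, adjusted p = 0.0298), Rab40b, a Rab-family GTPase (1.82, adjusted p = 0.0161), Hykk, hydroxylysine kinase (1.73, adjusted p = 0.00509), and Gzma, the killer cell protease granzyme A (1.02, adjusted p = 0.0457), had liver falls of 1.04 to 3.13. In 15 of the 57 genes that became higher, all tumour arrays of both days lay under 5.98, the lowest array median, and a fall in tumour could not have been measured there. In 7 of the 57, all livers of day 10 lay under that level. Gzma was among them and had all day 25 livers under it too, so the size of its liver fall is uncertain. In 34 of the 186 genes that became lower, all livers of day 10 lay under that level, among them Lcn2, Il1r2, Csf3r and Plod2, so the size of their liver rise is uncertain. In 14 of the 186, among them Clec9a, all tumours of day 25 lay under it.

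Cela1, an elastase, belongs to the pancreatic list, yet its change came from the liver. It had 9.37, 8.40 and 8.59 in tumours and 8.18, 7.83 and 7.59 in livers at day 25, against 8.36, 8.56 and 8.43 in tumours and 9.39, 9.50 and 9.70 in livers at day 10. The difference rose by 2.00 (SE 0.36, adjusted p = 0.0263), and the liver fell by 1.66 (adjusted p = 0.012). None of the other 14 measured acinar genes was called (1.71% of all genes were). The list's mean level stood out in the tumour of rat 9 (8.54, with Prss1, trypsinogen, at 8.32). The change of Cela1 was 1.87 to 2.18 in the fits that left out 1 rat (adjusted p from 0.0385 to 0.112), and the call held in 2 of them.

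The change was tumour-led in 19 genes. Cndp1, a dipeptidase that cuts carnosine, had 12.90, 12.17 and 11.57 in tumours and 7.89, 6.73 and 6.23 in livers at day 25, against 8.79, 8.95 and 8.55 in tumours and 5.82, 6.23 and 5.94 in livers at day 10. Every day 25 tumour lay above every day 10 tumour. The order of the rats was the same in tumours and livers at day 25, but not at day 10. The difference rose by 2.49 (SE 0.36, adjusted p = 0.0125; 0.121 without the rat block), and the tumour rose by 3.45 (SE 0.56, adjusted p = 0.0264) with a liver change of 0.96 (adjusted p = 0.309).

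The named tumour-led genes that became lower are known mostly from immune cells. Ch25h, cholesterol 25-hydroxylase, an interferon-induced enzyme of macrophages, had 7.24, 7.29 and 7.50 in tumours and 5.99, 5.97 and 5.83 in livers at day 25, against 8.55, 9.37 and 9.07 in tumours and 5.59, 5.66 and 5.53 in livers at day 10. The tumours fell by 1.65 (SE 0.23, adjusted p = 0.0109), and the difference fell by 1.99 (SE 0.31, adjusted p = 0.0165). Clec9a, the receptor that marks cross-presenting dendritic cells, had 4.65, 4.87 and 5.27 in tumours and 4.91, 4.66 and 5.10 in livers at day 25, against 6.21, 6.72 and 6.43 in tumours and 5.06, 5.03 and 4.78 in livers at day 10. Tumours came down to the liver level (liver change -0.07, adjusted p = 0.895), and the difference fell by 1.46 (SE 0.21, adjusted p = 0.0117). The day 25 tumours and the livers of both days lay under the array medians, where signal and background could not be parted.

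Ccl17, the dendritic cell chemokine that draws T helper cells, had 6.35, 6.31 and 6.73 in tumours and 6.53, 6.38 and 6.63 in livers at day 25, against 7.31, 7.98 and 7.86 in tumours and 6.78, 6.63 and 6.68 in livers at day 10. The tumour fell by 1.25 (adjusted p = 0.0109) to the level of the livers, and the difference fell by 1.07 (SE 0.21, adjusted p = 0.0376). Bcl2a1, a survival protein of leukocytes, had 7.66, 8.50 and 8.58 in tumours and 6.44, 7.05 and 7.17 in livers at day 25, against 9.34, 9.46 and 9.35 in tumours and 6.67, 6.45 and 6.54 in livers at day 10. Its difference fell by 1.47 (SE 0.17, adjusted p = 0.00509), but its tumour change of -1.14 did not pass alone (adjusted p = 0.143). Pla2g4a, the phospholipase that frees arachidonic acid, changed by -1.45 (adjusted p = 0.0394), with a tumour change of -1.15 (adjusted p = 0.166). Of 18 dendritic cell and MHC class II genes, 2 were called lower in the difference (11.1%, against 1.31% of all genes) and in the tumour test (against 0.0422%), Clec9a and Ccl17, and the median tumour change was -0.81. Cd74, the class II invariant chain, had a tumour change of -0.74 (adjusted p = 0.198).

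In a further set the tumour and the liver had shares of like size that ran in opposite directions. Asap2, a regulator of ARF proteins, had 10.40, 9.68 and 9.29 in tumours and 7.31, 6.71 and 6.68 in livers at day 25, against 8.77, 8.85 and 8.45 in tumours and 7.42, 7.74 and 7.57 in livers at day 10. Tumours were higher and livers lower at day 25 without overlap, the difference rose by 1.78 (SE 0.28, adjusted p = 0.0162), and neither tissue was called alone (adjusted p = 0.155 in tumour and 0.178 in liver). Pls1, the actin bundler plastin 1 of epithelial microvilli (1.91, adjusted p = 0.0248), Mab21l3 (1.85, adjusted p = 0.0103), Ngef (1.61, adjusted p = 0.0387), and Abcc4, a bile acid and nucleotide exporter (1.03, adjusted p = 0.0248), had tumour changes of 0.48 to 1.09 and liver changes of -0.89 to -0.55. Abcc4 was the 1 called member of 25 bile acid genes (4.0%, against 0.401% of all genes called higher), whose median change was -0.43.

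**Figure D3:**
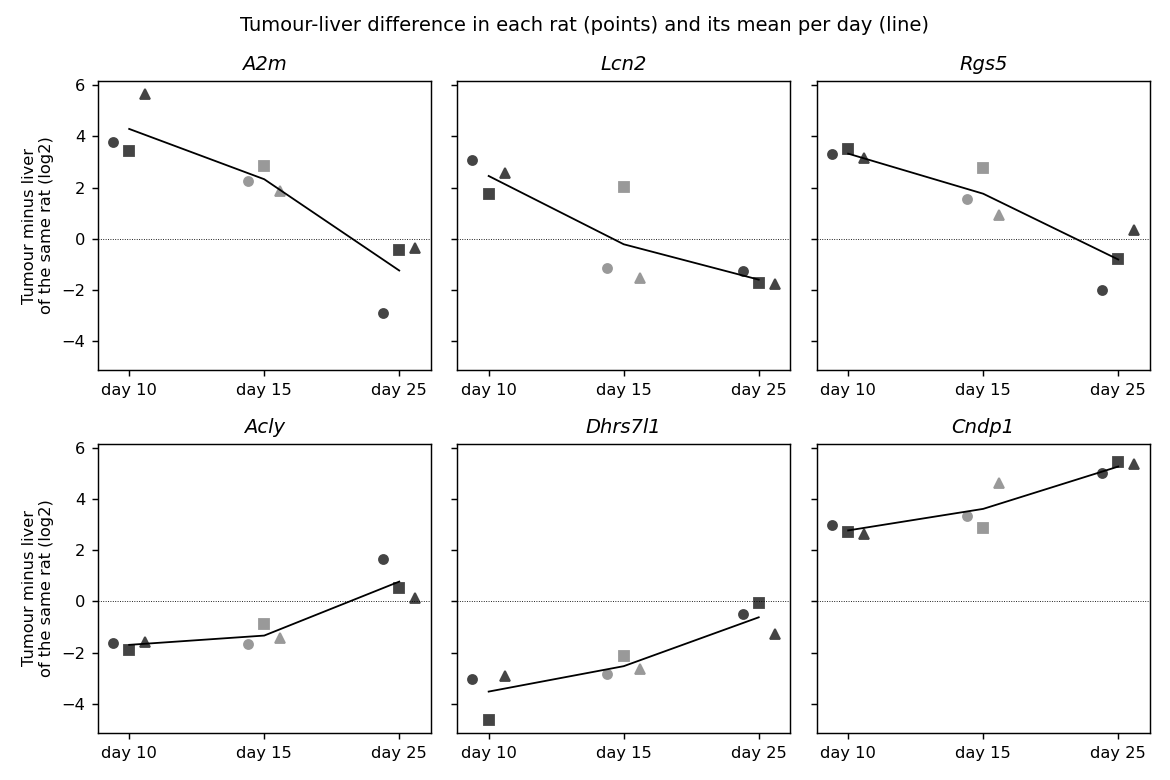
Tumour minus liver (log2) in each rat at days 10, 15 and 25 for 6 genes; points are rats and the line joins the means of 3 rats. The mean of day 15 lies between those of days 10 and 25 for each gene shown, and the rats of day 15 are spread widely for Lcn2.

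The 3 rats of day 15 took no part in the contrast, though they helped to set the shared spread. Their mean difference lay between those of days 10 and 25 for 226 of the 243 genes (93.0%, against 47.8% of all genes). These were 181 of the 186 genes that became lower and 45 of the 57 that became higher. Genes chosen for a wide gap between days 10 and 25 have the day 15 value between them more readily than others, so this count is a description and no check of the calls. A2m had a mean tumour-liver difference of 4.29 at day 10, 2.32 at day 15 and -1.24 at day 25. Acly had -1.70, -1.33 and 0.77 at these days, so its day 15 value was close to day 10. Lcn2 had 2.45, -0.22 and -1.60, and Cndp1 2.77, 3.61 and 5.27. Exceptions among the named genes were S100a9, at 2.71, 2.81 and 1.05, Hykk, Klf4, Pmvk and Poteml2, whose day 15 means lay outside that interval.

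Hepatocyte functions other than these had no called member, although their medians were negative. Of 15 hepatocyte genes 0 were called, with a median change of -1.05, a median tumour change of -1.06 and a median liver change of -0.01. Likewise 0 of 20 plasma carrier genes and 0 of 24 complement and coagulation genes were called, with medians of -1.55 and -1.36. Fabp1, the liver fatty acid carrier, was at 5.04, 10.95 and 11.86 in day 25 tumours, against 12.79, 11.70 and 12.56 in day 10 tumours. The tumour of rat 7 stood far below the others, as it did for the hepatocyte signal given above. Lists of the cell cycle, ErbB signalling, hypoxia and glycolysis, the respiratory chain, fatty acid oxidation and the interferon response also had 0 called members. In all, 23 of the 42 lists had 0 called members and 12 had 1, which is 3.2 to 11.1% of their members beside 1.71% of all genes.

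**Figure D4:**
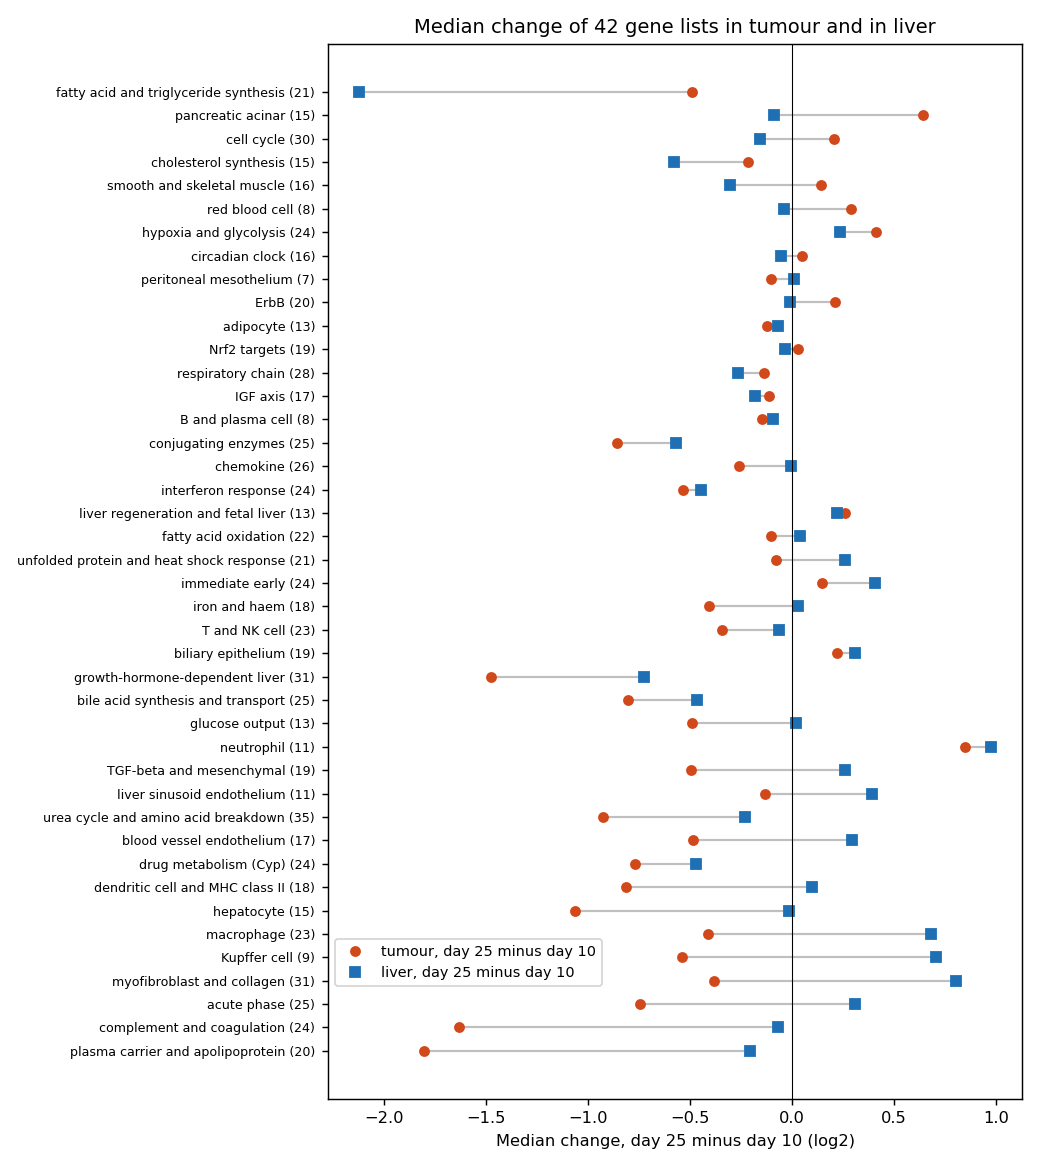
Median change from day 10 to day 25 (log2) over the measured members of 42 gene lists (number in brackets) in tumour (orange circles) and in liver (blue squares), sorted by the median change of the difference. The liver median of fatty acid and triglyceride synthesis is -2.12, and the tumour median lies below the liver median for the lists at the bottom.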

How the data were processed

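RNA of 21 tissue samples was measured on Affymetrix rat arrays. The table holds log2 signals of probe sets as deposited; the authors made them with RMA, per the submitters' processing notes, whose version is not given in the sources used. RMA aligns the distribution of every array, and the medians lay between 5.98 and 6.06. The labels give no batch or scan date. Arrays carry no read depth, and 3 rats per group limit the precision.

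From 31099 probe sets, 20832 with a single symbol in the platform annotation were kept (436 had several and 9831 none), and each of 14218 genes was represented by its probe set of highest mean level. Symbols were updated through a GRCr8 gene table, which held 20764 of the identifiers. The change in the tumour-liver difference was fitted in R 4.3.3 with limma 3.58.1 (lmFit, eBayes) on all 21 arrays as 7 group means with the rat as a fixed block, which left 8 residual degrees of freedom. The change of each tissue came from the fit without the block (14 degrees of freedom), since the days are different rats. Adjustment followed Benjamini and Hochberg over 14218 genes, with calls at 0.05; each adjusted p in the text is from limma. The labels give tumour and liver the same rat number, and their deviations from the group means correlated with r of 0.04 to 0.297 in the 9 rats. The test of the change in the difference was checked on simulated data.

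The genes and the 42 lists (924 members, 824 measured, 7 under an older symbol) were chosen with earlier results of these data known. Named were up to 15 called genes per direction with the largest change and no overlap between the rats of the days, without provisional names; the 5 largest tumour-led and liver-led genes; up to 4 called members and the highest uncalled member of each list; and Erbb2. One gene that the rule names is not reported here. Further list members and genes named in the text were chosen after their values were seen. Alternatives were other scalings, filters, probe sets, array sets, prior and weights, the block, the ratio of the side rule, and leaving out each rat.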

Additional observations from a re-analysis of the deposited data

Results flagged for a closer look

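For 243 genes the tumour-liver difference of day 25 departed from that of day 10 by a test of the difference itself (limma, tumour and liver of the same rat, adjusted p under 0.05), which is why they are listed for a closer look. The named genes reported here had these changes on the log2 scale. Among liver-led genes the difference changed by A2m -5.53, Rgs5 -4.13, Lcn2 -4.05, Pcdh17 -3.46, Pcolce -3.33, Rgs4 -3.27, Plod2 -3.10, Olr1 -3.05, Il1r2 -2.75, Serpinb1a -2.52, Kcnj8 -2.36, Clec7a -2.33, Fxyd5 -2.32, Cebpd -1.94, Hmox1 -1.92, Csf3r -1.69, Vim -1.66, Col5a2 -1.66, Lgmn -1.60, Cux2 -1.02 and Klf4 -1.0. In the other direction the liver-led changes were Dhrs7l1 2.90, Slc13a4 2.86, Stac3 2.61, Nox4 2.59, Acly 2.47, Poteml2 2.32, Cela1 2.00, Sez6 2.00, Rab40b 1.82, Hykk 1.73, Tkt 1.42, Pmvk 1.25, Gzma 1.02, Gclc 0.87 and Pgd 0.76. Among genes in which both tissues had a part the changes were Ccl21 -4.77, Cdh11 -2.07, S100a9 -1.66, Fcgr2b -1.58 and Zeb2 -1.23, with Pls1 1.91, Mab21l3 1.85, Asap2 1.78, Ngef 1.61 and Abcc4 1.03 in the positive direction. Among tumour-led genes the changes were Ch25h -1.99, Bcl2a1 -1.47, Clec9a -1.46, Pla2g4a -1.45 and Ccl17 -1.07, against Cndp1 2.49 in the positive direction. No cause of these changes was tested.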

How the results depend on the processing

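The number of genes whose difference changed (243) was 67 with only the 12 arrays, 599 with array weights and 402 with the rat as a random replicate block in place of the fixed paired one. It was 208 with no replicate block, and 129 of these were among the 243. Leaving out 1 rat gave 20 to 505 genes, and 20 to 195 of the 243 were still called. Quantile normalization gave 68 higher and 132 lower, against 57 and 186 as reported. The number of genes called in tumour (8) was 0 among genes above the median level (0.05 adjusted threshold, limma), 4535 with array weights and 0 to 128 without 1 rat. In liver (1294) it was 2374 with array weights and 392 to 1594 without 1 rat; centring the arrays on their medians gave 605 higher and 675 lower and quantile normalization 668 and 630, against 758 and 536 as reported. The liver-led count (151) ran from 122 to 175, the tumour-led count (19) from 11 to 29 and the day 15 count (226) from 222 to 228 over their alternatives. The 53 named changes kept their sign in each fit that held them with the same probe set (37 of them in the fit of genes above the median level); of these calls, 12 to 48 held without 1 rat, 27 with only the 12 arrays, 31 with no replicate block, 39 with the random block and 45 after quantile normalization. Other probe sets gave the opposite sign for Cdh11 (0.13), Cebpd (0.072) and Serpinb1a (0.064); the cause was not tested. Without detection calls, signals under the array medians have no firm floor, and the top of the scale limits abundant liver transcripts.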

Other observations

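Some growth-hormone-dependent genes of male rat liver fell in liver, and the 3 given first had tumour changes of like size that did not pass the test, so their change in the difference was small or uncertain. Cyp2c11, a male-specific steroid hydroxylase, had 4.66, 5.65 and 8.45 in tumours and 5.93, 6.76 and 11.13 in livers at day 25, against 11.95, 11.22 and 12.33 in tumours and 13.35, 13.57 and 13.53 in livers at day 10. Its liver fell by 5.54 (limma, adjusted p = 0.0162), its tumour change was -5.58 (adjusted p = 0.141) and the change in the difference was -0.04 (SE 1.15). Obp3, a urinary globulin, had a change of -5.96 in tumour (adjusted p = 0.141) and in liver (adjusted p = 0.0194). Car3, carbonic anhydrase 3, had a change of -4.97 in tumour (adjusted p = 0.177) and -5.66 in liver (adjusted p = 0.0337). The day 25 liver of rat 9 kept the highest level of Cyp2c11, Obp3 and Car3. The list of growth-hormone-dependent genes also holds genes high in female liver, such as Cux2 and Cyp2c12. Of its 31 measured members, 3 rose and 6 fell in liver (5.33% and 3.77% of all genes did). In tumour 0 were called at this threshold (0.0563% of all genes were). In the difference 2 were called (6.5%, against 1.71% of all genes): Dhrs7l1, which fell in liver, and Cux2, which rose there. Cyp2c12, a female-specific hydroxylase, had a liver change of 2.37 that did not pass (adjusted p = 0.156).

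Among called genes outside the naming rule, chosen after their values were seen, were general leukocyte genes. Ptprc, the leukocyte antigen CD45, had 9.57, 9.83 and 10.04 in tumours and 8.76, 8.68 and 8.53 in livers at day 25, against 10.26, 10.25 and 10.26 in tumours and 7.83, 7.81 and 7.53 in livers at day 10. Tumours were lower and livers higher at day 25 without overlap, and the difference fell by 1.38 (SE 0.27, adjusted p = 0.0365). Coro1a, Cd53 and Lcp1, also leukocyte genes, had changes of -1.97, -1.58 and -1.61. Hgf, the growth factor that drives hepatocyte division, rose by 1.34 in liver (adjusted p = 0.000624), and its difference fell by 1.52 (SE 0.28, adjusted p = 0.0277). Edn1, endothelin 1, a vessel constrictor, had 9.22, 8.37 and 8.39 in tumours and 5.82, 5.45 and 4.95 in livers at day 25, against 7.19, 7.08 and 6.70 in tumours and 5.34, 4.98 and 4.87 in livers at day 10, and its difference rose by 1.32 (SE 0.28, adjusted p = 0.0452).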
